A study of Mus musculus with 6 samples.

Results

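The *Hox* genes and *Halr1*, a long noncoding RNA gene beside the *Hoxa* cluster, were examined in RNA-seq of mouse embryonic stem (mES) cells. Members were all gene symbols made of Hox, a cluster letter a to d and a number, together with *Halr1*. This gave 36 *Hox* genes and *Halr1*, 37 of 16668 listed genes. GENCODE M1 annotates 39 such *Hox* genes, and *Hoxa6*, *Hoxb5* and *Hoxb6* were not analysed here.

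*Hox* genes encode homeodomain transcription factors that give cells their position along the head-to-tail axis. Mammals carry them in 4 clusters, and within a cluster the order of the genes follows the order of their expression along the axis, from the anterior genes with low paralogue numbers to the posterior genes with high ones. In ES cells the clusters are a standard example of Polycomb repression. Ring1B, encoded by *Rnf2*, is the ligase of Polycomb repressive complex 1 that ubiquitylates histone H2A, and Dzip3 is another H2A ubiquitin ligase. *Halr1* is known as a transcript that responds to retinoic acid.

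All 6 libraries were made from wild-type E14 cells, a feeder-independent line of strain 129/Ola, at passages 3 to 5. The cells were grown on gelatin in 2i medium (PD0325901 and CHIR99021) with LIF and received siRNA, a control siRNA in the control cells according to the methods. By sample label there were 3 groups of 2 libraries, named control, Ring1B-KD (knockdown of Ring1B) and Dzip3-KD (knockdown of Dzip3). Transfection by siRNA lowers a transcript only in part and for a limited time. The labels do not say whether replicates came from separate cultures, so p-values measure only the spread between these libraries. The study's own legend calls the RNA-seq samples biological duplicates.

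File names and sample labels disagreed: for 4 of 6 libraries the condition word in the file's name was not that of its label. Files 1, 2 and 3 were named control, Ring1BKD and Dzip3KD, and their samples were labelled control 1, control 2 and Ring1B-KD 1. Files 4, 5 and 6 were again named control, Ring1BKD and Dzip3KD, with the labels Ring1B-KD 2 for file 4, Dzip3-KD 1 for file 5 and Dzip3-KD 2 for file 6. Every list of 6 values below follows this file order, so that each value can be read by either naming. Comparisons were made by label and, separately, by file name within the 2 sets of 3 files, and neither naming is taken to show that a knockdown took place.

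*Rnf2* was at 30.6, 20.4, 26.8, 28.8, 19.4 and 28.2 RPKM (read numbers scaled to exon length in kilobases and to the library's mapped reads). Its 2 lowest values were in the files named Ring1BKD, whose samples were labelled control 2 and Dzip3-KD 1. *Dzip3* was at 2.24, 2.68, 1.18, 1.89, 1.70 and 1.31 RPKM, lowest in the files named Dzip3KD, labelled Ring1B-KD 1 and Dzip3-KD 2. By file name the log2 change of *Rnf2* in Ring1BKD was -0.55 (SE 0.13, limma adjusted p = 0.232) and that of *Dzip3* in Dzip3KD was -0.45 (SE 0.21, limma adjusted p = 0.754). By label, *Rnf2* in Ring1B-KD was at 0.15 (SE 0.24, limma adjusted p = 0.965) and *Dzip3* in Dzip3-KD at -0.47 (SE 0.24, limma adjusted p = 0.458).

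Depth recovered from the values was 3015349 to 3583612 mapped reads per library, at which 3 reads amount to between 0.419 and 0.497 RPKM for a gene of 2 kb. Whole reads could be recovered for all 37 members, and intervals from reads cover counting error only. The labelled cell type had its markers. All 9 ES cell markers were expressed, with summed levels of 1527 to 1991 RPKM, and *Pou5f1*, *Nanog* and *Dppa5a* averaged 327, 245 and 510 RPKM. Fibroblast markers summed to 1.48 to 3.36 RPKM, 5 of 8 being listed, and *Col1a1*, *Col1a2* and *Lum* were at 0 in at least 1 library. *Thy1* and *Pdgfra* had reads in every library. *Thy1*, at 0.765, 1.68, 2.73, 2.09, 2.12 and 2.09 RPKM, made up most of the sum, and *Pdgfra* had 2 to 9 reads. In bulk RNA, fewer cells that express a gene and less of its RNA per cell cannot be told apart.

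*Hox* transcripts were scarce in these cells. The median of the 36 *Hox* genes was 0.27 RPKM, against 2.15 RPKM over all listed genes, and 10 of 36 (27.8%) averaged above 0.5 RPKM, against 69.2% of all genes. By cluster these were 2 of 10 listed *Hoxa* genes, 2 of 8 *Hoxb* genes, 3 of 9 *Hoxc* genes and 3 of 9 *Hoxd* genes. Among the 10 were *Hoxa7*, *Hoxb9*, *Hoxb13*, *Hoxc4*, *Hoxc12*, *Hoxc13*, *Hoxd8*, *Hoxd9* and *Hoxd13*. In at least 1 library 23 genes passed 0.5 RPKM (7, 5, 5 and 6 in clusters a to d), and in every library 5 did (1, 1, 1 and 2). *Hoxb9*, *Hoxc13*, *Hoxd9* and *Hoxd13* were among those 5.

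Single libraries had 12, 14, 13, 11, 12 and 8 *Hox* genes above 0.5 RPKM, and 12, 7, 9, 12, 9 and 17 at 0. The 36 genes together were behind 984 reads in the 6 libraries, and 31 of them had fewer than 10 reads in every library. At this depth most *Hox* genes could not be compared between libraries one by one. The clusters lie on chromosome 6 (*Hoxa*), 11 (*Hoxb*, 96055630 to 96229570), 15 (*Hoxc*, 102751534 to 102867274) and 2 (*Hoxd*, 74506367 to 74603200), all in the mm9 build.

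**Figure D1:**
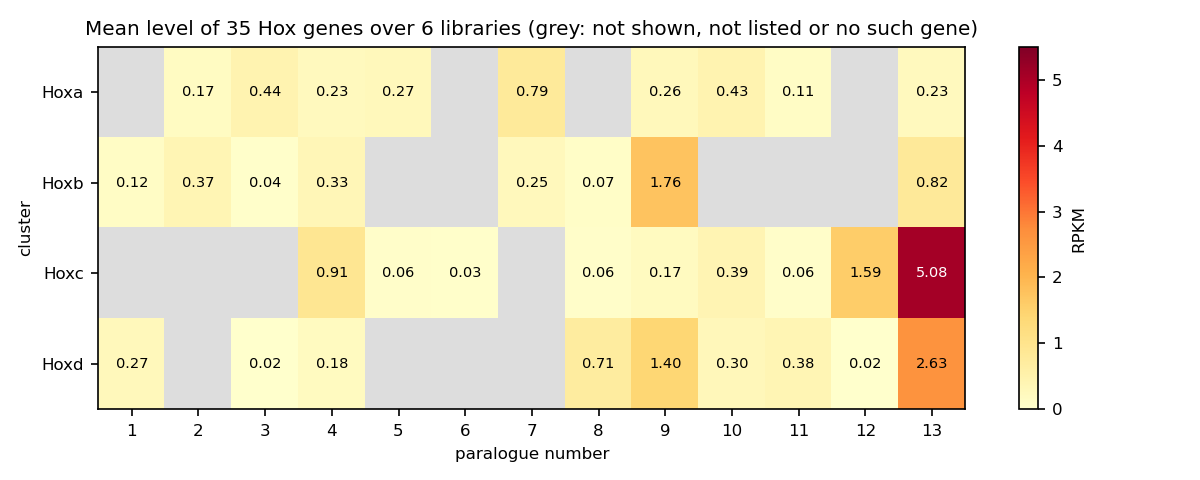
Mean RPKM over the 6 libraries for 35 listed *Hox* genes, by cluster (rows) and paralogue number (columns), with the value written in each cell. Grey cells show no gene, and the darkest cells, *Hoxc13* at 5.08 and *Hoxd13* at 2.63 RPKM, lie in the last column.

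Over all clusters together, the reads lay mostly in posterior genes. Genes of paralogue groups 9 to 13 were 16 of the 36 listed. The *Hoxa* cluster differed, as *Hoxa9*, *Hoxa10*, *Hoxa11* and *Hoxa13* had 17, 27, 5 and 6 of its 227 reads. Groups 9 to 13 held 68.3% of the *Hox* RPKM summed over the libraries, and *Hoxc13* alone held 22.2%. The levels, in order, were *Hoxc13* 5.08, *Hoxd13* 2.63, *Hoxb9* 1.76, *Hoxc12* 1.59, *Hoxd9* 1.40, *Hoxc4* 0.911, *Hoxb13* 0.815, *Hoxa7* 0.791 and *Hoxd8* 0.708 RPKM as means of the 6 libraries. *Hoxc13* was above *Hoxd13* in 5 of 6 libraries, the exception being the file named Ring1BKD of the first set (labelled control 2). For every pair of neighbours in this order the ranges of the library values overlapped.

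Levels were also uneven between neighbours within a cluster. *Hoxd13* had 130 reads in the 6 libraries, and *Hoxd12*, whose start lies 3330 bp beyond the *Hoxd13* end in mm9, had 1 read, in the file named Ring1BKD of the first set (labelled control 2). *Hoxc13* had 247 reads, *Hoxc12* had 27 and *Hoxc11* had 1.

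The promoters of *Hoxd13*, *Hoxd12* and *Halr1* are shown because *Hoxd13* and *Hoxd12* are neighbours of unlike level and *Halr1* had the largest log2 change of the members by label. Sequences are from RefSeq on GRCm38.p6, on the plus strand, which is the coding strand of all 3 genes, in windows of 300 bases that end shortly after the annotated start. Each CG dinucleotide is in capitals.
Hoxd13 (chr2:74667975-74668274): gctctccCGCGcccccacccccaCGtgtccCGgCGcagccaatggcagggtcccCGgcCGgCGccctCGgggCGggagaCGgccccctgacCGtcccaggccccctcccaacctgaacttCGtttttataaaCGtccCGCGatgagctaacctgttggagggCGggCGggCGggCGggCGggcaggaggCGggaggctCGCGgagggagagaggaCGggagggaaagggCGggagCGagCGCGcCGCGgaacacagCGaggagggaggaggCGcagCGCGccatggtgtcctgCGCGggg
Hoxd12 (chr2:74674763-74675062): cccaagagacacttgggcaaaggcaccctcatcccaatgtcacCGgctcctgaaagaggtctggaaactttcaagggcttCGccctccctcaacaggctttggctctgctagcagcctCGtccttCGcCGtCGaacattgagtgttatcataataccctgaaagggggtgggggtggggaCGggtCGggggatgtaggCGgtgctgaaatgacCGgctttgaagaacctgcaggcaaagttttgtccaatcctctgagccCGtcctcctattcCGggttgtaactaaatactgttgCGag
Halr1 (chr6:52102699-52102998): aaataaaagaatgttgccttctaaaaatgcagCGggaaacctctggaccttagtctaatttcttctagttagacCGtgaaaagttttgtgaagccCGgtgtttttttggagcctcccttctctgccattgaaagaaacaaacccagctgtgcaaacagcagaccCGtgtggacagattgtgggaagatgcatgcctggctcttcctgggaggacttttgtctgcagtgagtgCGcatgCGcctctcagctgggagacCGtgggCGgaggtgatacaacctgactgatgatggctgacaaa

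The *Hoxd13* window held 37 CG dinucleotides, a number reached by 5.58% of the 32851 promoters in the RefSeq table. *Hoxd12* held 13 (37.9% of promoters hold as many) and *Halr1* 8 (48.6%). RefSeq promoters were found for 22 of the 37 members, 21 of them *Hox* genes with 23 promoters. Those 23 held 4 to 45 CG, with a median of 14 against 7 over all promoters, and 19 of 23 were above that median. *Hoxa13*, with 45 CG, averaged 0.228 RPKM, and *Hoxc4*, *Hoxa7* and *Hoxa2*, with 9 CG each, averaged 0.911, 0.791 and 0.170 RPKM. Whether CG number goes with level was not tested. CG-rich promoters are where Polycomb complexes typically bind, which was not measured in these libraries.

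*Halr1* had the largest log2 change among the members by label. It lies at chr6:52052948-52062531 on the plus strand of mm9 (annotated there as *Gm15055*), and overlaps no other annotated gene. Its level was 5.96, 6.82, 4.26, 4.90, 0.551 and 1.51 RPKM, on 10, 13, 8, 9, 1 and 3 reads. Both libraries labelled Dzip3-KD, files 5 and 6, lay below the other 4.

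By label, *Halr1* averaged 6.39 ± 0.602 RPKM in control, 4.58 ± 0.448 in Ring1B-KD and 1.03 ± 0.675 in Dzip3-KD (SD, n = 2). Its log2 change was -1.90 in Dzip3-KD against control (SE 0.26, limma adjusted p = 0.254), -0.41 in Ring1B-KD against control (SE 0.26, limma adjusted p = 0.909) and -1.50 in Dzip3-KD against Ring1B-KD (SE 0.26, limma adjusted p = 0.864). None of the 3 passed the threshold of 0.05. Poisson 95% intervals from the reads ran from 0.0139 to 3.07 and from 0.311 to 4.40 RPKM in the libraries labelled Dzip3-KD, and from 2.86 to 10.97 and 3.63 to 11.66 RPKM in control. The interval of Dzip3-KD 2 overlapped those of both controls, and the interval of Dzip3-KD 1 overlapped that of control 1 and lay below that of control 2.

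By file name the pattern was different. *Halr1* in the file named Ring1BKD was 1.14 times the control of the first set and 0.112 times that of the second. In the file named Dzip3KD it was 0.715 and 0.307 times the control. The log2 change was -0.88 for Ring1BKD (SE 0.41, limma adjusted p = 0.617), -0.82 for Dzip3KD (SE 0.41, limma adjusted p = 0.754) and 0.06 for Dzip3KD against Ring1BKD (SE 0.41, limma adjusted p = 0.975). The Ring1BKD value turned on the set. It was -1.61 without file 1, -1.72 without file 2, -0.15 without file 4 and -0.04 without file 5. The Dzip3KD value was -1.55 without file 1 and -0.09 without file 4.

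**Figure D2:**
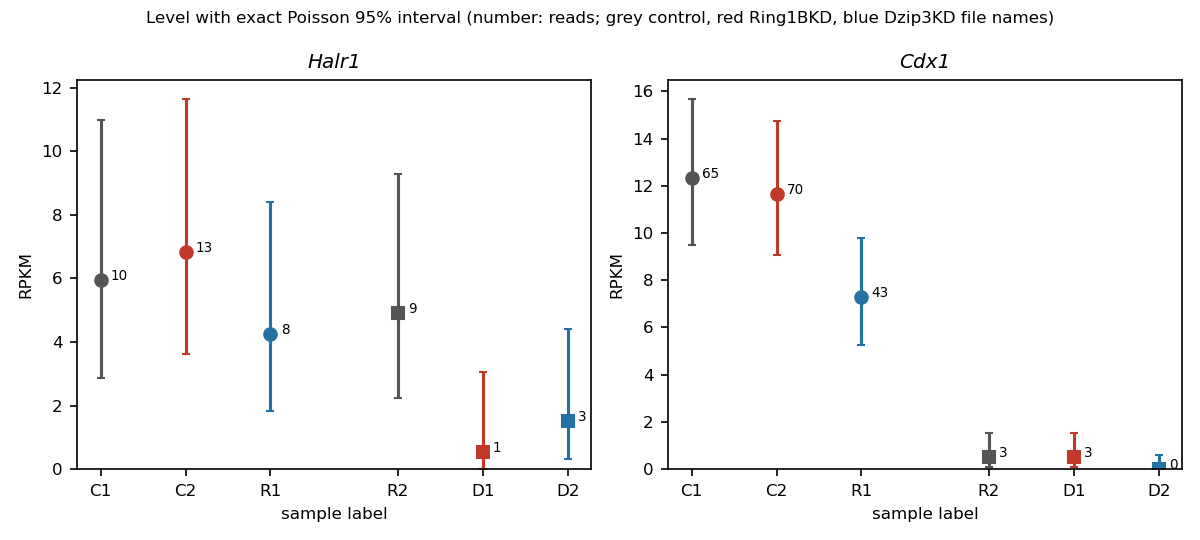
RPKM of *Halr1* and *Cdx1* in each library (C control, R Ring1B-KD, D Dzip3-KD, the sample labels; circles files 1 to 3, squares files 4 to 6), with exact Poisson 95% intervals from the reads, whose number stands beside each point. *Halr1* was lowest in the libraries labelled Dzip3-KD, and *Cdx1* was at 0.525 RPKM or less in files 4 to 6.

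Among the central genes, *Hoxa7* was at 0.680, 1.05, 1.37, 0.465, 0.471 and 0.715 RPKM, on 3 to 9 reads. In the second set the files named Ring1BKD and control had 3 reads each. *Hoxc4* was at 1.00, 1.32, 1.64, 0.458, 0.617 and 0.422 RPKM, each file of the second set below each of the first. *Hoxd8* was at 0, 0.945, 0.961, 0.701, 0.992 and 0.646 RPKM. Its value of 0, in the library labelled control 1, allows up to 0.461 RPKM (3 reads), and the other 5 libraries had 5 to 7 reads. *Hoxa7* and *Hoxd8* overlap other annotated genes on the opposite strand. Central *Hox* genes such as these pattern the neck and trunk.

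*Hoxd13*, a posterior gene needed for digit and urogenital development, was at 2.80, 4.34, 2.75, 1.95, 2.59 and 1.35 RPKM. The file named Ring1BKD was the highest in each set, 1.55 and 1.33 times the control, and the file named Dzip3KD the lowest, at 0.979 and 0.692 times. In the first set the file named Dzip3KD had 23 reads and the control 21, so that file was below the control by depth alone. *Hoxc13*, known for its role in hair and nail formation, was at 5.45, 3.95, 5.97, 4.48, 4.53 and 6.08 RPKM. In each set the file named Dzip3KD was the highest, 1.10 and 1.36 times the control. These 2 genes had the most reads of all members, 12 to 37 and 33 to 53 per library.

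*Hoxd9* was at 1.90, 2.22, 0.565, 0.576, 2.33 and 0.797 RPKM, on 2 to 8 reads, with a ratio of Ring1BKD to control of 1.17 in the first set and 4.05 in the second. *Hoxb9* was at 1.47, 2.81, 1.65, 1.23, 0.794 and 2.58 RPKM. It was 1.91 times the control in Ring1BKD of the first set and 0.644 times in the second. Both genes belong to paralogue group 9, which marks the thoracic trunk. *Hoxd9* was the highest in the file named Ring1BKD in each set, and *Hoxb9* in Dzip3KD was 1.12 and 2.10 times the control.

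*Hoxb13*, a tail bud and prostate gene, was at 1.52, 1.11, 0.451, 0.691, 0.699 and 0.425 RPKM, with both control labels above all other libraries, on 6 and 5 reads against 2 or 3. *Hoxc12* was at 0, 1.38, 2.81, 2.51, 1.82 and 0.993 RPKM. The 0 was again in control 1 and, by the same limit of 3 reads, allows up to 1.18 RPKM, more than the value in Dzip3-KD 2. By label, *Hoxc12* and *Hoxd9* in Ring1B-KD had log2 changes of 1.25 (SE 0.39) and -0.96 (SE 0.31), both with a limma adjusted p of 0.902.

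**Figure D3:**
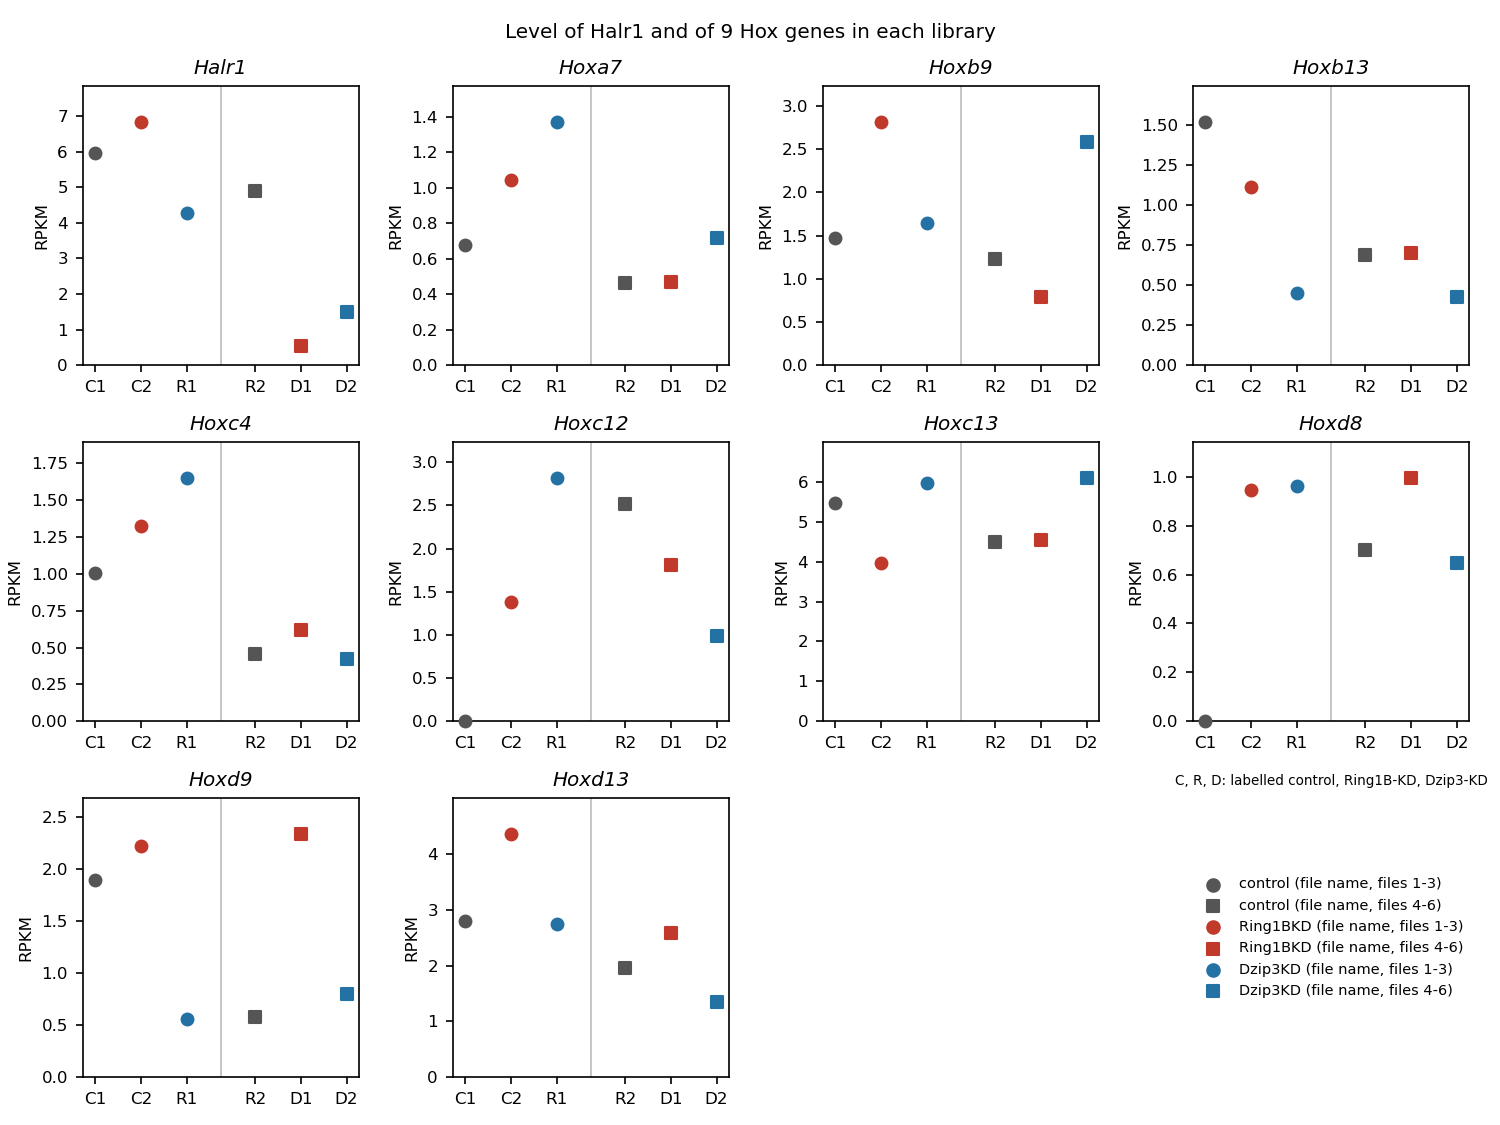
RPKM of *Halr1* and of 9 *Hox* genes that averaged 0.5 RPKM or more in each library, 1 panel a gene (C control, R Ring1B-KD, D Dzip3-KD, the sample labels; colour, the word in the file name; circles files 1 to 3, squares files 4 to 6). *Hoxc4* and *Hoxd13* had all squares below all circles, and *Hoxd8* and *Hoxc12* were at 0 in C1.

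The other 26 *Hox* genes averaged 0.0167 to 0.440 RPKM. *Hoxd12*, *Hoxd3*, *Hoxc11* and *Hoxc6* had 1 read in all. *Hoxb1*, whose product patterns the hindbrain, had 5 reads, all in the file named Ring1BKD of the first set (labelled control 2). *Hoxa2* and *Hoxd4* had 6 and 9 reads in files 1 to 3 and 0 in files 4 to 6, and *Hoxc5* had 3 and 0. *Hoxa11* had 5 reads, all in files 4 and 5. A further 17 had reads in both sets. These were *Hoxa3*, *Hoxa4*, *Hoxa5*, *Hoxa9*, *Hoxa10*, *Hoxa13*, *Hoxb2*, *Hoxb3*, *Hoxb4*, *Hoxb7*, *Hoxb8*, *Hoxc8*, *Hoxc9*, *Hoxc10*, *Hoxd1*, *Hoxd10* and *Hoxd11*, with at most 7 reads in any library. In GENCODE M1, 23 of the 37 members overlap another annotated gene, 17 of them on the same strand, so their reads are uncertain.

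Summed over the 36 genes, *Hox* levels were 21.7, 29.0, 27.4, 18.8, 22.4 and 17.9 RPKM, on 142, 216, 196, 130, 153 and 147 reads. The file named Ring1BKD was the highest in each set and the file named Dzip3KD was above its control in the first set and below it in the second. Genes of paralogue groups 1 to 3 summed to 3.41, 5.66, 4.88, 1.40, 3.39 and 1.47 RPKM, those of groups 4 to 8 to 3.28, 5.27, 5.73, 3.10, 3.49 and 2.44, and those of groups 9 to 13 to 15.0, 18.0, 16.8, 14.3, 15.5 and 14.03. The anterior sum varied 4.05-fold between its lowest and highest library and the posterior sum 1.29-fold. The anterior sum rested on 24, 43, 38, 11, 26 and 13 reads and the posterior sum on 98 to 135, so counting error alone differs between the 2.

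**Figure D4:**
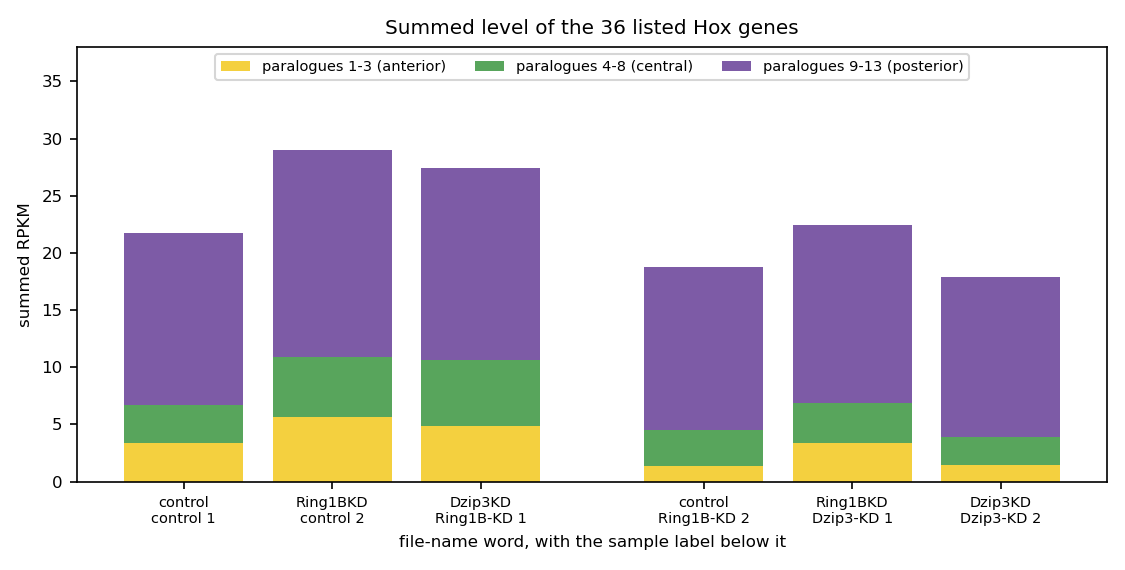
Summed RPKM of the 36 listed *Hox* genes in each library, split into paralogue groups 1 to 3, 4 to 8 and 9 to 13, with the word in the file name and the sample label under each bar. The totals were 21.7, 29.0 and 27.4 RPKM in files 1 to 3 and 18.8, 22.4 and 17.9 in files 4 to 6.

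Tests across all genes used limma on log2(RPKM + 1) and covered 11538 genes that averaged 0.5 RPKM or more, of which 11 were members (10 *Hox* genes and *Halr1*). That scale understates the change of low genes. No member passed an adjusted p of 0.05 in any of the 6 knockdown comparisons. By label the share of all genes that passed was 0% for Ring1B-KD against control, 0% for Dzip3-KD against control and 0% for Dzip3-KD against Ring1B-KD. At an unadjusted p under 0.05 the members were 2, 2 and 1 of 11, and all genes 589, 1411 and 534 of 11538. By file name 0.416% of genes passed for Ring1BKD against control (48 genes), 0% for Dzip3KD against control and 0.676% for Dzip3KD against Ring1BKD (78 genes). Members at an unadjusted p under 0.05 were 1, 0 and 3 of 11, and all genes 959, 752 and 1164.

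Directions within the file sets were also counted. For Ring1BKD, 6 of 11 members were above the control in both sets (among them *Hoxa7*, *Hoxc4*, *Hoxd8*, *Hoxd9* and *Hoxd13*), where 18.5% of all tested genes were, and 0 of 11 were below it in both, where 40.6% were. For Dzip3KD, 4 of 11 were above in both (among them *Hoxa7*, *Hoxb9* and *Hoxc13*; background 22.3%) and 3 below in both (*Hoxb13*, *Hoxd13* and *Halr1*; background 29.5%). The 2 knockdown words share their control files. Of the 11 members 2, *Hoxa7* among them, were above the control in all 4 of these comparisons, as were 7.51% of tested genes. For *Hoxa7* in Ring1BKD of the second set, as for *Hoxb13* and *Hoxc13*, which also stood 1.01 times above their control there, the files had equal reads and differed only in depth. *Hoxd13* in Dzip3KD of the first set had 23 reads against 21 in the control and was below it by depth alone.

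Over all 36 *Hox* genes, those below the filter included, Ring1BKD was above the control in both sets for 14 genes (38.9%, against 18.9% of all listed genes) and below for 2 (5.56%, against 31.4%). Those 2 were *Hoxa10* and *Hoxc10*. For Dzip3KD the counts were 4 (11.1%, against 20.0%) and 5 (13.9%, against 25.1%). Of these 5, *Hoxa10* and *Hoxd13* in the first set and *Hoxa9* in the second had no fewer reads than the control and were below it by depth alone. Of the 14, *Hoxa4*, *Hoxa7* and *Hoxd11* had equal reads in both files of the second set and were above the control there by depth alone. Many of these genes had 1 or 2 reads, and a gene with equal values in a pair of files counts in neither direction. The shares over all listed genes are not matched for level, as 27.8% of *Hox* genes and 69.2% of all genes averaged above 0.5 RPKM. For Ring1BKD the share below in both sets was 40.6% among tested genes and 31.4% among all listed genes, so it changed with level. The median log2 change of the 11 tested members was 0.18 for Ring1BKD and 0.24 for Dzip3KD, against -0.08 and -0.03 over all tested genes.

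By label, Dzip3-KD lay below both controls for 5 of 11 members (among them *Hoxb13*, *Hoxc4*, *Hoxd13* and *Halr1*), where 30.3% of tested genes did, and above both for 0, where 20.4% did. Ring1B-KD lay below both controls for 4 (*Hoxb13*, *Hoxd9*, *Hoxd13* and *Halr1*; background 18.9%) and above for *Hoxc12* alone (background 14.9%). The median log2 change of the members was -0.31 in Ring1B-KD and -0.32 in Dzip3-KD, against -0.02 and -0.07 over all tested genes. The sign of the members' median thus differed between the 2 namings.

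**Figure D5:**
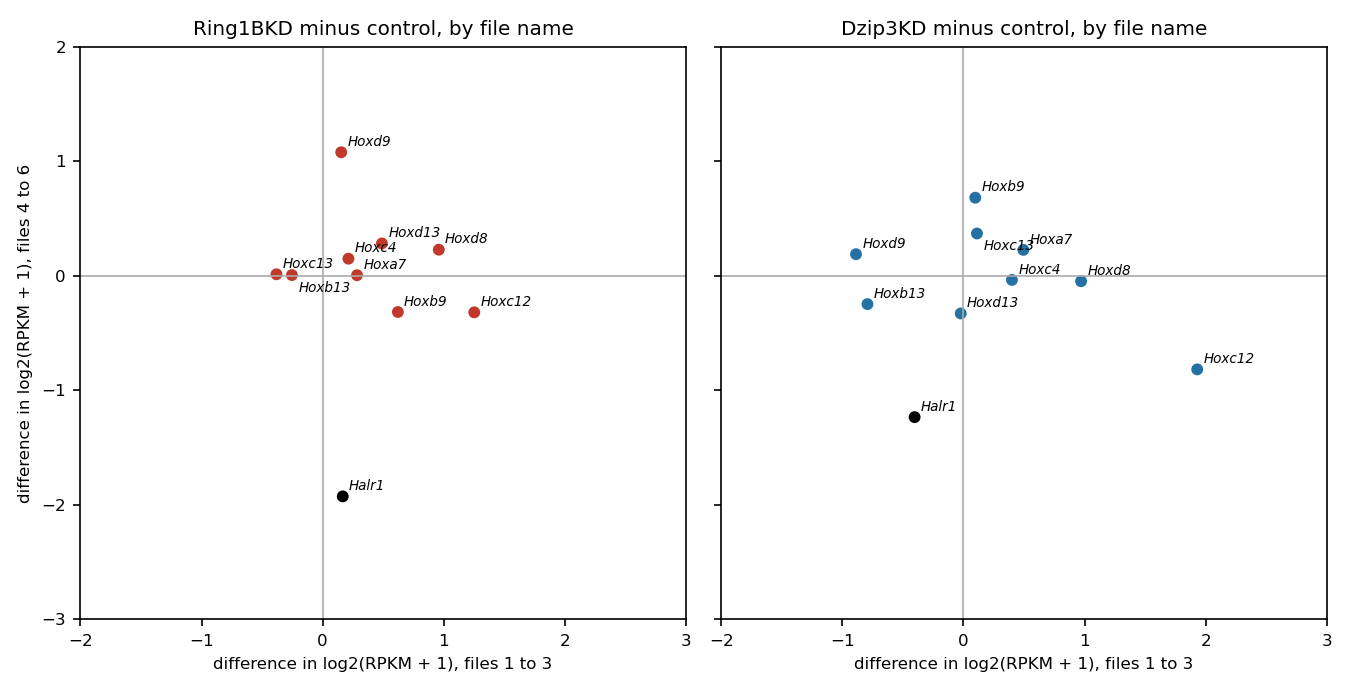
Difference in log2(RPKM + 1) between the file named Ring1BKD (left) or Dzip3KD (right) and the file named control, in files 1 to 3 (horizontal axis) and files 4 to 6 (vertical axis), for 9 *Hox* genes (coloured) and *Halr1* (black). For Ring1BKD, 5 of the genes shown lie above 0 on both axes and none below 0 on both, and for Dzip3KD 3 lie above and 3 below.

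The set difference itself was also tested, a comparison added after the data had been seen. Every control label falls in files 1 to 3 and every Dzip3-KD label in files 4 to 6, and of the labels only Ring1B-KD has a library in each set. With the set as a term in the comparison by label, the log2 change of *Halr1* in Dzip3-KD against control was -2.07 (SE 0.45, limma adjusted p = 0.829). Between the 2 libraries labelled Ring1B-KD, *Halr1* was at 4.26 RPKM in the first set and 4.90 in the second. Files 4 to 6 were below files 1 to 3 without overlap for 3 of 11 members, *Hoxc4* and *Hoxd13* among them, where 15.5% of tested genes were, and above for 0, where 13.1% were. Adjusted p fell under 0.05 for 7.62% of tested genes (879) and for 0 of 11 members. An unadjusted p under 0.05 was found for 4 of 11 members and for 3056 of 11538 tested genes. The log2 change of *Halr1* was -1.21 (SE 0.34, limma adjusted p = 0.0678). Without file 1 or without file 4, *Halr1* was at -1.70 and passed (limma adjusted p = 0.0034 and 0.0032). Without file 2 or without file 5 it was at -0.66 and did not (limma adjusted p = 0.177 and 0.159), nor did it pass without file 3 or file 6.

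Genes that act on *Hox* genes were read beside the members. Of 19 regulators, the Cdx factors and the retinoic acid pathway, 17 were listed and 8 tested. *Cdx1*, a homeobox gene that activates *Hox* genes in the posterior embryo, was at 12.3, 11.7, 7.28, 0.519, 0.525 and 0 RPKM, on 65, 70, 43, 3, 3 and 0 reads. Its difference between files 4 to 6 and files 1 to 3 was -3.08 on the log2 scale (SE 0.15), and its limma adjusted p of 0.000324 was the lowest of all tested genes in that comparison. By label *Cdx1* was at -3.39 in Dzip3-KD (SE 0.64, limma adjusted p = 0.254) and -1.87 in Ring1B-KD (SE 0.64, limma adjusted p = 0.902). By file name it was at -0.64 in Dzip3KD (SE 0.18, limma adjusted p = 0.754) and -0.03 in Ring1BKD (SE 0.18, limma adjusted p = 0.975). *Cdx2*, named after its values were seen, was at 0.618, 0.408, 0.276, 0, 0 and 0 RPKM, on 9 reads. The part of *Cdx1* in the *Hox* levels was not tested.

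The receptor *Rarg*, the retinoid-binding protein *Crabp1* and the receptor *Rxrb* had the highest levels of this list, with means of 12.4, 9.53 and 6.75 RPKM. No regulator passed in a knockdown comparison by either naming. *Crabp2* in Dzip3KD by file name was at 1.39 (SE 0.42, limma adjusted p = 0.754), and *Rxra* in Ring1BKD was at 0.58 (SE 0.16, limma adjusted p = 0.350). The levels of *Crabp2* were 0.368, 0.648, 1.32, 1.01, 0.340 and 7.13 RPKM. They rested on 1, 2, 4, 3, 1 and 23 reads, most of them in file 6. *Crabp1* in Dzip3-KD by label was at 0.90 (SE 0.23, limma adjusted p = 0.301).

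Hox cofactors, the Pbx, Meis and Pknox homeodomain proteins that bind DNA together with Hox proteins, were present at higher levels than most *Hox* genes. All 9 were listed, 8 were tested, and they summed to 16.6 to 21.2 RPKM. *Pbx2*, *Meis2* and *Pknox1* averaged 5.10, 4.87 and 3.54 RPKM. None passed in any comparison.

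Most genes flanking the clusters had higher levels than the genes inside. Of 19, 14 were listed and 12 averaged at least 0.5 RPKM and were tested, and *Atp5g3*, *Cbx1* and *Cbx5* averaged 90.6, 32.5 and 29.7 RPKM. *Skap2*, which lies beyond the anterior end of the *Hoxa* cluster, averaged 9.56 RPKM (named after its values were seen). No flanking gene passed in a knockdown comparison. *Ttll6* was at 0.310, 0.364, 1.29, 1.70, 1.81 and 2.61 RPKM and was higher in files 4 to 6 (log2 change 0.91, SE 0.18, limma adjusted p = 0.0244). Of 22 other cluster transcripts 5 were listed and 2 tested. *Gm53* was at 2.15, 0.945, 3.36, 3.43, 3.47 and 5.88 RPKM, higher in files 4 to 6 (log2 change 0.78, SE 0.18, limma adjusted p = 0.0400). *Mira* was at 1.25, 0.365, 2.60, 1.14, 0.384 and 0.350 RPKM.

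Markers of other cell types were compared between the file sets, and the summed levels overlapped between sets for 3 of the 4 lists that follow. Primitive endoderm markers summed to 1.75 to 2.88 RPKM in files 1 to 3 and 1.09 to 1.38 in files 4 to 6 (7 of 7 listed, 1 tested, 0 passed), with *Gata6*, *Sox17*, *Sox7* and *Foxa2* at 0 in at least 1 library. Early mesoderm markers summed to 2.00 to 2.60 and 1.44 to 2.06 (5 of 6 listed, 1 tested, 0 passed), with *T*, *Mesp1* and *Wnt3* at 0 in at least 1. Neural markers summed to 19.7 to 28.0 and 27.2 to 38.5 (6 of 7 listed, 4 tested), of which *Nes* passed and was higher. Trophectoderm markers summed to 12.1 to 14.5 and 11.9 to 17.8 (6 of 7 listed, 5 tested), of which *Krt8* passed and was lower. In every library *Tubb3* (mean 19.8 RPKM) was the largest part of the neural sum and *Tfap2c* (mean 8.79 RPKM) of the trophectoderm sum. Of the ES cell markers, *Tdgf1* was higher and *Esrrb* and *Utf1* were lower in files 4 to 6. In the knockdown comparisons none of the marker genes passed. Their part in the *Hox* differences was not tested.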

How the data were processed

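Total RNA of 6 libraries was sequenced by the authors as stranded mRNA on a MiSeq. According to the methods, reads were aligned to mm9 with the Illumina Analysis Pipeline, and reads unique to a gene gave the deposited RPKM values, 1 list per library. The annotation, software versions and use of strand in counting are not given in the sources used here. RPKM does not correct for a change in RNA composition.

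Groups were taken from the sample labels, and the condition words in file names were compared separately with the file set as a term. The limma fits (limma 3.58.1, R 4.3.3, variance trend, Benjamini-Hochberg adjustment) used log2(RPKM + 1) with a pseudocount of 1 and a filter of a mean of at least 0.5 RPKM. Whole reads were recovered from the steps of the values for 15206 genes (91.2%), with depth matched to GENCODE M1 exon lengths and values below 0.001 RPKM taken as 0. Reads are the fewest that give the values. Poisson intervals have a level of 95%. The fit by file name was tested on simulated data for Ring1BKD against control. Changes were placed only in genes of higher level than most members, and the fits by label were not simulated. *Halr1* and every *Hox* gene with a mean of at least 0.5 RPKM were given in full, and of each other list the 3 highest genes and those with an unadjusted p under 0.05 could be named. Values of 1 *Hox* gene and 1 cofactor gene that meet this rule are not reported here, although both are counted. Members and lists were chosen with earlier results of these data known. Alternatives were other pseudocounts, filters and scalings, other terms in the fit, and leaving out each library.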

Additional observations from a re-analysis of the deposited data

How the results depend on the processing

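No member passed in any of the 6 knockdown comparisons under any alternative run, and 0 passed in each fit without 1 library. For the file set comparison, leaving out control 1 or Ring1B-KD 2 gave 1 member (*Halr1*, log2 change -1.70 in both fits) and the other fits gave 0. Means above 0.5 RPKM numbered 11 members. At 0.2 RPKM there were 24, at 1 RPKM 7, and with files 1 to 3 or files 4 to 6 alone 12 and 11.

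Leaving out 1 library moved *Halr1* by label between -2.25 and -1.56 (Dzip3-KD against control), -0.49 and -0.32 (Ring1B-KD against control) and -1.85 and -1.15 (Dzip3-KD against Ring1B-KD). By file name it moved between -1.72 and -0.04 (Ring1BKD), -1.55 and -0.09 (Dzip3KD), and -0.78 and 0.90 (Dzip3KD against Ring1BKD, reversed without Dzip3-KD 1 or Dzip3-KD 2), and for the file set between -1.70 and -0.66. Adjusted p for *Halr1* in Dzip3-KD against control by label ranged from 0.0552 to 0.829. *Cdx1* lost its call for the file set without a filter (-3.08, limma adjusted p = 0.0937). The cause was not tested.

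Genes that passed for Ring1BKD by file name numbered 48. There were 21 with a pseudocount of 0.1, 71 at a minimum of 1 RPKM, 72 with 75th percentile scaling, 3 without Dzip3-KD 1, and 0 without a filter or without the file set term. For Dzip3KD against Ring1BKD there were 78 genes, against 42 with a pseudocount of 0.1, 0 without a filter or file set term, and 26 to 172 without 1 library. Dzip3-KD against control by label gave 0, against 24 with only its 4 libraries, and 25 and 27 without Ring1B-KD 1 or 2. Dzip3KD against control by file name gave 0, and 4 and 1 without Ring1B-KD 2 or Dzip3-KD 2. The file set gave 879, against 0 without a filter and 351 to 509 without 1 library.

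Deviations of same-numbered libraries correlated at -0.036, -0.242 and 0.0444 between the pairs of groups. The libraries of each label carried different file-name words, so these values cannot settle whether the numbers pair the samples. With a replicate block, 1 gene passed in Dzip3-KD against control, 0 members passed, and *Halr1* was at -1.90 (limma adjusted p = 0.0663). With the Dzip3-KD numbers crossed, added after seeing the data, 0 genes passed. Depth limited the members, 31 of 36 *Hox* genes having fewer than 10 reads in every library.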
